A study of Mus musculus with 6 samples.

Results

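Glycolysis and the pentose phosphate branch were followed in mouse tumours in which an overexpressed microRNA, miR-155, was turned off. The set comprised 39 genes listed by name as glycolytic enzymes, glucose and lactate transporters, pyruvate dehydrogenase kinases, PFKFB regulatory enzymes and pentose phosphate enzymes. Each was matched by its exact identifier to 1 of the 29209 rows of the authors' deposited table. Of the 39, 38 were tested by the authors and Pklr, the pyruvate kinase gene of liver and red cells, was not. All 6 samples were subcutaneous tumours grown in NCr nude mice from splenic cells of diseased mir-155LSLtTA mice, which carry a doxycycline-repressible miR-155 transgene. The mice of 3 samples (DOX) received chow with 2.3 mg/kg doxycycline for 16 hours before harvest, and those of the other 3 (no DOX) were untreated. Every sample thus came from transgenic donor cells in a host that lacks most mature T cells but keeps its own myeloid, vascular and stromal cells. Doxycycline was not given to a tumour without the transgene, so an effect of the drug cannot be told apart from that of miR-155 loss. Neither the number of donor mice nor whether tumours of 1 group grew in different mice is given in the sources used here, so the p-values cover the spread among these 6 samples alone, some of which may be technical.

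The deposited table gives 1 linear ratio, 1 unadjusted p and 1 adjusted p per gene. It holds no value per sample, no level and no standard error, so values for single tumours, their overlap between groups and the depth behind each gene are unknown. The numerator of the ratio is not stated. It is read here as DOX over no DOX, and "higher" and "lower" exchange places throughout if the authors divided the other way. A gene is called changed at the authors' adjusted p under 0.05. In a bulk tumour sample, fewer cells of a type and less RNA per cell cannot be told apart.

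Glycolysis splits glucose into pyruvate in the cytosol. The upper steps spend ATP to prime the sugar, and the lower steps recover ATP and reduce NAD. Lactate dehydrogenase regenerates NAD by turning pyruvate into lactate. The pentose phosphate branch leaves after the hexokinase step. Its oxidative arm makes NADPH, and its non-oxidative arm interconverts sugars and supplies ribose for nucleotides. Many steps are encoded by several genes with different tissue distributions, and proliferating lymphoid cells are known for high glucose use.

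miR-155 recognises transcripts mainly through its seed, bases 2 to 8 of the mature strand. The mature sequence from RefSeq (GRCm38.p6) is shown with the seed in capitals, followed by the 4 members whose longest annotated 3' UTR (GENCODE M21) holds a 7-base match to it, with 30 bases around each match and the match in capitals.
mmu-miR-155-5p: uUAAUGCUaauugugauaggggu
Aldoc: ccattattatatGCATTAAcacagctctgt
Pdk1: gtgcaagctaaAGCATTAgcgggaagacca
Pfkp: ttgtgatcatccGCATTAAatttagctcag
Slc16a1: agtatttttctAGCATTAtagttgcctggc
Matches were either AGCATTA, which pairs with the whole seed, or GCATTAA, which pairs with its first 6 bases and ends in A. They were present in 4 of 39 members (10.3%) and in 13.5% of 14074 tested genes with an annotated 3' UTR. None of the 15 members called lower and none called higher held a match. In the authors' deposited table all 4 with a match missed the threshold, with log2 folds of -4.20 for Aldoc, -0.87 for Pdk1, -0.56 for Pfkp and 0.19 for Slc16a1.

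Genes of glycolysis and of the pentose phosphate branch were lower after DOX in 15 of 38 tested cases (39.5%) in the authors' deposited table, where 5.61% of all 18543 tested rows were lower. Only Pgls was higher among the members, where 5.72% of all tested rows were higher in the authors' deposited table. The members' median log2 fold was -0.94 and that of all tested rows with a finite fold 0.17 in the authors' deposited table. The 15 lower genes ranged from -2.86 for Ldha to -1.11 for Pgd, with a median of -1.93 in the authors' deposited table. The 22 members that did not pass ranged from -4.20 for Aldoc to 4.08 for Hk3, with 11 folds below 1 and 11 above 1 in the authors' deposited table. Members were split by adjusted p, so the widths of both ranges depend on the threshold and are not a result about the genes. Aldoc, Eno2 and Hk3 had folds beyond 10 in either direction and did not pass. Their p-values are larger than those of the members that passed by construction of the threshold.

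**Figure D1:**
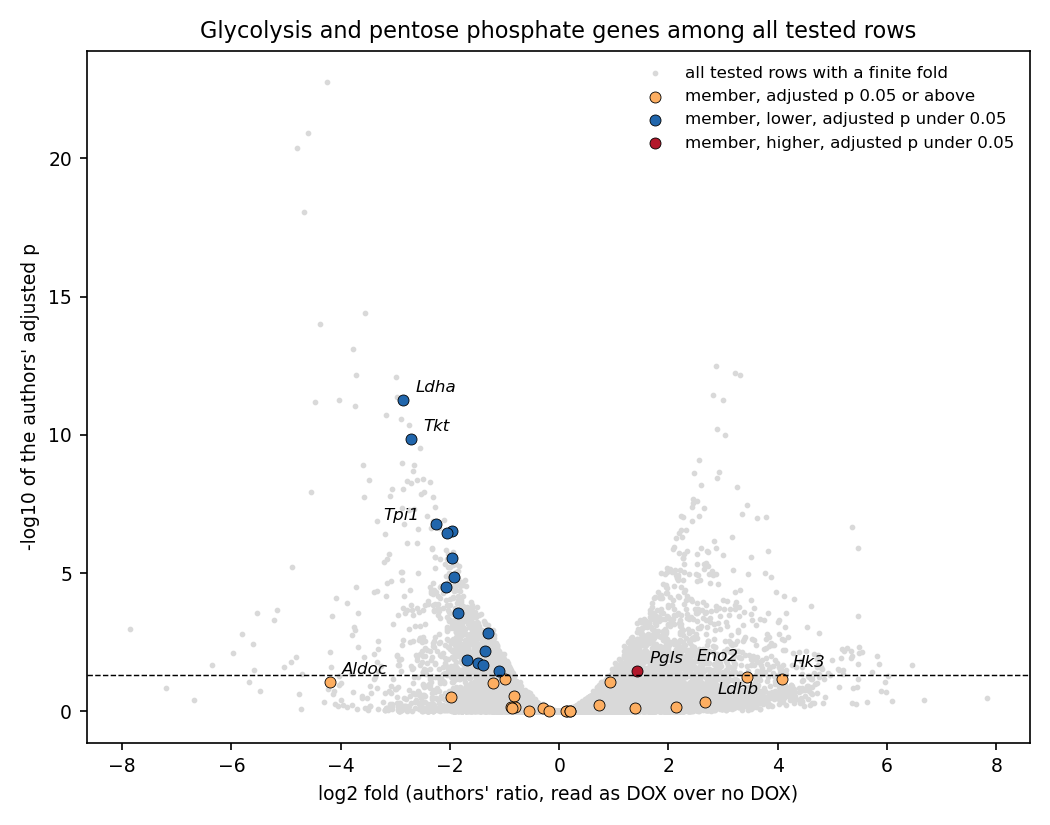
Log2 fold (x axis) against −log10 of the authors' adjusted p (y axis) for the 38 tested members over all 15784 tested rows with a finite fold (grey), with the dashed line at an adjusted p of 0.05. The 15 lower members, picked by the threshold, lie between -2.86 and -1.11, headed by Ldha and Tkt. Aldoc, Hk3 and Eno2 have larger folds below the line.

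**Figure D2:**
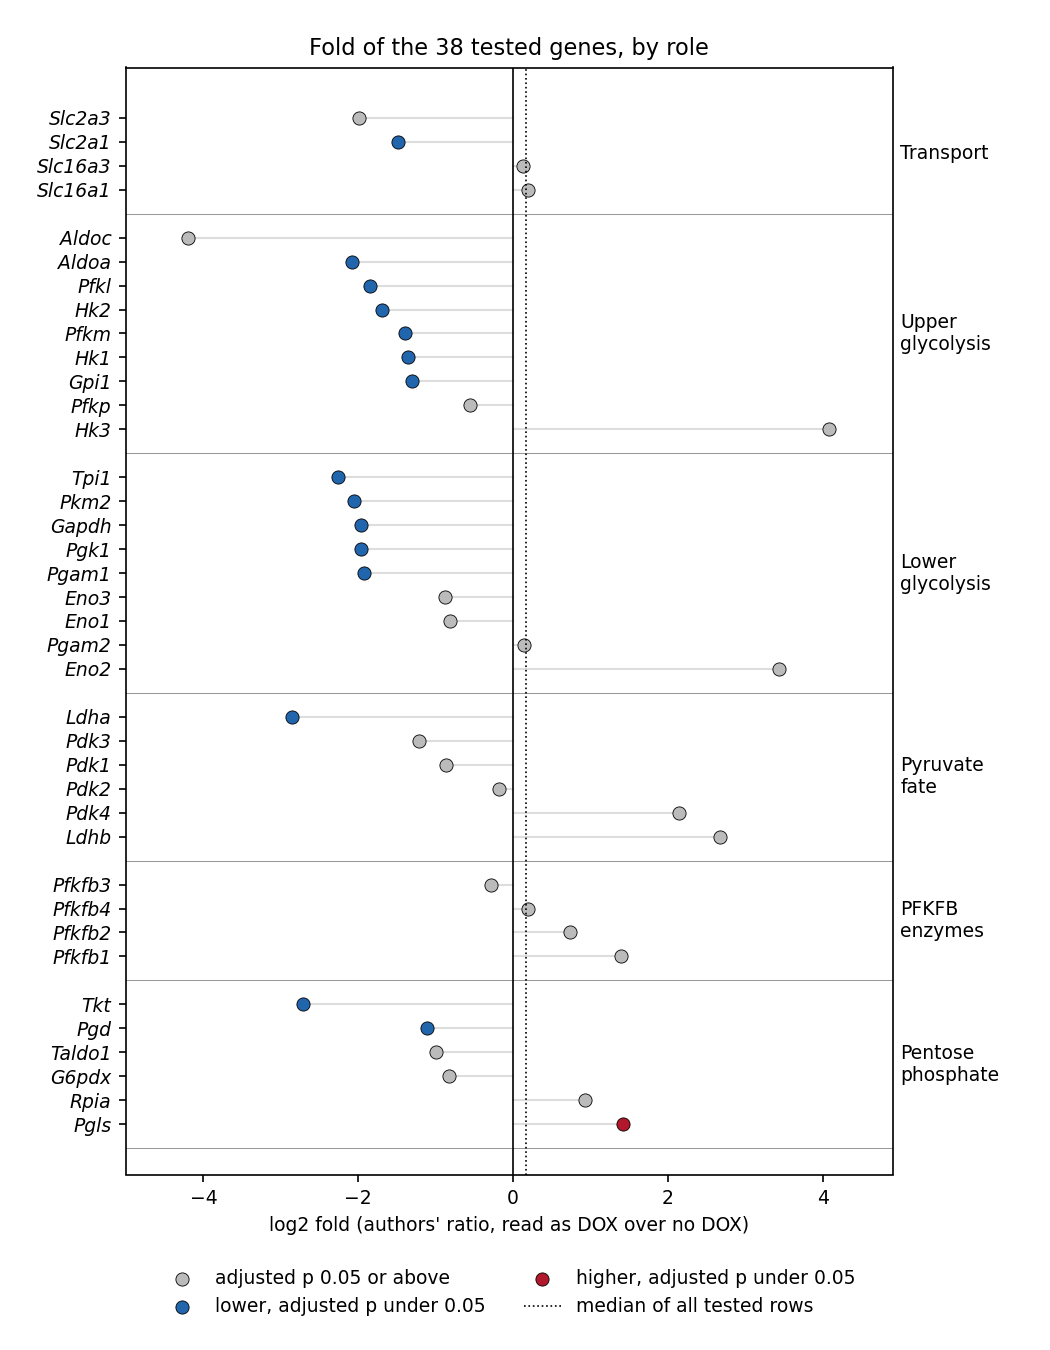
Log2 fold of each tested member, grouped by role, with filled colour for genes past an adjusted p of 0.05 and a dotted line at the median of all tested rows (0.17). Upper and lower glycolysis hold 11 of the 15 lower genes. None of the 4 PFKFB genes passed, where 11.3% of all tested rows were called in either direction.

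In upper glycolysis at least 1 gene of every step fell, from glucose phosphorylation to aldol cleavage. Of 9 tested members 6 were lower and 0 higher, at a median of -1.40 (log2) in the authors' deposited table. Hexokinase commits glucose to the cell, and both Hk1, the general form, and Hk2, the inducible form, fell: by 2.56-fold (log2 -1.36, adjusted p = 0.00682) and 3.22-fold (-1.69, 0.0137) in the authors' deposited table. Hk3, the hexokinase best known from myeloid cells, stood at 4.08 and missed the threshold (adjusted p = 0.0698) in the authors' deposited table. Gpi1, which isomerises glucose 6-phosphate, fell by 2.48-fold (log2 -1.31, adjusted p = 0.00144) in the authors' deposited table.

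Phosphofructokinase is the committed step, and its 3 subunit genes were all below 1. Pfkl, the liver-type subunit, fell by 3.62-fold (log2 -1.85, adjusted p = 0.000278) and Pfkm, the muscle-type subunit, by 2.64-fold (-1.40, 0.0204) in the authors' deposited table. Pfkp, the platelet-type subunit, had -0.56 and an adjusted p of 0.940 in the authors' deposited table and did not reach the threshold. Aldolase splits the primed sugar, and Aldoa, the main form outside liver and brain, fell by 4.24-fold (log2 -2.08, adjusted p = 3.16e-05) in the authors' deposited table. Aldoc, the brain form, had the most negative fold of the set, -4.20, yet an adjusted p of 0.0881 in the authors' deposited table.

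In lower glycolysis 5 of 9 tested members were lower and 0 higher, with a median of -1.93 in the authors' deposited table. The 5 that passed ranged from -2.26 to -1.93 in the authors' deposited table. Tpi1, which interconverts the triose phosphates, fell by 4.80-fold (log2 -2.26, adjusted p = 1.72e-07) in the authors' deposited table. Gapdh, which reduces NAD, fell by 3.88-fold (-1.96, 2.93e-07) in the authors' deposited table. Pgk1, which makes the first ATP of the lower steps, fell as far (-1.96, 2.88e-06), and Pgam1, the general phosphoglycerate mutase, by 3.82-fold (-1.93, 1.39e-05) in the authors' deposited table. Pkm2, the row of the muscle-type pyruvate kinase gene Pkm, fell by 4.13-fold (-2.05, 3.45e-07) in the authors' deposited table, and the table does not separate its M1 and M2 splice forms.

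Enolase was the 1 step of this stretch where no member passed. Eno1, the general form, stood at -0.81 on the log2 scale (adjusted p = 0.675) and Eno3, the muscle form, -0.88 (0.679) in the authors' deposited table. Eno2, the neuronal form, stood at 3.43 and just missed the threshold (0.0584) in the authors' deposited table. A separate row, EG433182, is the older name of Eno1b, an intronless copy of Eno1, and was looked up after the values were seen. It fell by 5.84-fold (log2 -2.55, adjusted p = 2.95e-10), rank 26 of 18543 by unadjusted p, in the authors' deposited table. In GENCODE M21 the coding sequences of Eno1 and Eno1b match over 1305 bases with 8 mismatches (99.4% identity). The 90 bases from coding position 661 to 750, counted from 1 at the first coding base, hold 3 of the 8 mismatches, shown in capitals, and no substitution was found before position 726.
Eno1: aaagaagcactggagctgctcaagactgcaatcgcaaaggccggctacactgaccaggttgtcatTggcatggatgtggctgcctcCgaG
Eno1b: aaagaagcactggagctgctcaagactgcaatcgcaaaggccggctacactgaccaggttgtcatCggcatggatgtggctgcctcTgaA
The 3 differences are T726C, C747T and G750A, with the Eno1 base first. Reads from stretches with no mismatch can be assigned to either row, so the fold of Eno1 and that of EG433182 in the authors' deposited table are both uncertain. How the reads were divided was not tested.

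Copies of this kind were searched for every member. In GENCODE M21, 9 of 39 members had at least 1 other gene whose transcript matched 50% or more of the coding sequence at 95% identity or above. Gapdh had 74 such copies, Eno1 3, Ldha and Pgk1 2 each, and Gpi1, Ldhb, Pfkfb2, Pgam1 and Pkm2 1 each. The Gapdh row of the authors' deposited table carries 2 RefSeq accessions that belong to the transcribed pseudogenes Gm6981 and Gm12070, so its value may include their reads. Another Gapdh copy, Gm6316, has a row of its own, EG622339, which did not pass and has a ratio of Inf, opposite in direction to the fall of Gapdh (unadjusted p = 0.0171, adjusted p = 0.109), in the authors' deposited table. Eno1b and Gm6316 were the 2 copies found with a row of their own. Without the 9 genes that have a copy, 9 of 29 members (31.0%) were lower and 1 higher in the authors' deposited table.

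Pyruvate fate had 1 of 6 genes called lower, Ldha, while 5 missed the threshold in the authors' deposited table. Among all tested rows 5.61% were lower in the authors' deposited table. Ldha, whose enzyme favours lactate formation, was the most secure member, rank 17 of 18543 by unadjusted p, and fell by 7.29-fold (log2 -2.86, adjusted p = 5.68e-12) in the authors' deposited table. Ldhb, the heart-type subunit, had 2.67 and an adjusted p of 0.464 in the authors' deposited table. The pyruvate dehydrogenase kinases block pyruvate entry into the citric acid cycle, and 0 of 4 passed. Pdk3 had -1.21 (adjusted p = 0.0944), Pdk1 -0.87 (0.758), Pdk2 -0.18 (adjusted p listed as 1) and Pdk4 2.14 (0.695) in the authors' deposited table. The median of these 6 genes was -0.52 in the authors' deposited table.

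Of 4 transport genes 1 was called lower, where 5.61% of all tested rows were lower in the authors' deposited table. Slc2a1, the widespread glucose transporter GLUT1, fell by 2.80-fold (log2 -1.49, adjusted p = 0.0175) in the authors' deposited table. Slc2a3, the high-affinity transporter GLUT3, had -1.99 with an adjusted p of 0.314 in the authors' deposited table. The lactate carriers Slc16a1 (MCT1) and Slc16a3 (MCT4) stood at 0.19 and 0.13 in the authors' deposited table, close to the median of all tested rows (0.17), and neither passed. The median of the 4 was -0.68 in the authors' deposited table.

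The PFKFB enzymes set the level of the sugar bisphosphate that activates phosphofructokinase, and none of their 4 genes passed. Of all 18543 tested rows 11.3% were called in either direction, so none of 4 is not a result about these genes. Pfkfb3, the form with high kinase activity, had -0.29 (adjusted p = 0.752) and Pfkfb2 0.73 (0.575) in the authors' deposited table. Pfkfb4 had 0.19 and Pfkfb1, the liver form, 1.39 (0.734) in the authors' deposited table. This was the 1 role with a median above 0, at 0.46 in the authors' deposited table.

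Calls in the pentose phosphate branch went both ways. Of 6 genes, 2 were lower and 1 higher, with a median of -0.91 in the authors' deposited table. Among all tested rows 5.61% were lower and 5.72% higher in the authors' deposited table. Tkt, the transketolase that links the branch back to glycolysis, was second to Ldha among all members, rank 25 by unadjusted p, and fell by 6.60-fold (log2 -2.72, adjusted p = 1.40e-10) in the authors' deposited table. Its partner in the non-oxidative arm, the transaldolase gene Taldo1, had -0.99 and missed the threshold (0.0683) in the authors' deposited table. Rpia, which makes ribose 5-phosphate, lay on the other side at 0.93 (0.0864) in the authors' deposited table.

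In the oxidative arm the 3 enzymes act in series. G6pdx, the entry dehydrogenase, had -0.83 and an adjusted p of 0.278 in the authors' deposited table. Pgls, the lactonase that follows it, rose by 2.68-fold (log2 1.42, adjusted p = 0.0342) in the authors' deposited table. Pgd, the last dehydrogenase of the arm, fell by 2.15-fold (log2 -1.11, adjusted p = 0.0356) in the authors' deposited table. Pgls and Pgd thus had nearly equal adjusted p-values and opposite directions, and neither passed at an adjusted p under 0.01.

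Isoforms of the same step differed in fold. In 7 of 11 steps with more than 1 gene in the set, at least 1 isoform was lower, and in 1, pyruvate kinase, every tested isoform was, since Pklr was not tested. The isoforms' log2 folds spanned 5.77 for hexokinase (Hk2 to Hk3), 5.53 for lactate dehydrogenase (Ldha to Ldhb) and 4.32 for enolase (Eno3 to Eno2) in the authors' deposited table. They spanned 1.29 for phosphofructokinase, 0.50 for the glucose transporters and 0.06 for the lactate carriers in the authors' deposited table. Pgam2, the muscle mutase, had 0.14 beside -1.93 for Pgam1 in the authors' deposited table. Differences between isoforms were not tested, since the table holds no value per sample.

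Markers of cell types were looked up in the same comparison, where 5.61% of all tested rows were lower and 5.72% higher in the authors' deposited table. All 12 macrophage markers had a fold above 1, from 0.41 to 4.75 on the log2 scale with a median of 2.02, and 2 passed, Csf1r (2.16) and Mertk (3.30), in the authors' deposited table. Of all 18543 tested rows 11007 had a fold above 1. Of 7 tested neutrophil markers 3 were higher, Mmp9 (2.17), Csf3r (4.34) and Cxcr2 under its older name Il8rb (2.33), in the authors' deposited table. Of the 4 that did not pass, 1 was below 1, Mpo with a ratio of 0. Postn (3.74) and Pdgfra (1.95) were the 2 of 9 fibroblast markers that were higher, and Lpl (2.60) the 1 of 2 tested adipocyte markers, in the authors' deposited table. Of 8 endothelial markers Eng was lower (-1.04), and of 5 tested neural markers Tubb3 was (-7.87), in the authors' deposited table. None of 5 erythroid and 8 skeletal muscle markers passed. Their medians, over 3 and 7 finite folds, were 2.19 and 2.26 in the authors' deposited table and are not read as a rise. At an unadjusted p under 0.05 these lists held 0 and 1, the latter Tnni2 at -2.68, where all 18543 tested rows held 4147. B lineage markers had a median of 0.49 (log2) in the authors' deposited table. Of those 10, Ebf1 (1.61), Cd72 (1.24) and Blnk (1.04) were higher and Igll1 (-1.14) lower in the authors' deposited table. The table gives no levels, so the share of each cell type is unknown. The part of these cells in the folds of Hk3, Eno2, Ldhb or the 15 lower genes was not tested.

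Neighbouring routes of sugar metabolism were looked at for comparison. Outside the set, 67 further genes of these routes were tested, of which 5 were lower (7.46%) and 0 higher, and their median was -0.43 (log2) in the authors' deposited table. That share is near the 5.61% of all tested rows that were lower in the authors' deposited table, and the 5 genes are given as single values, not as a change of these routes. Galk1, the galactokinase that feeds galactose into the pathway, fell by 7.33-fold (log2 -2.87, adjusted p = 9.03e-06) in the authors' deposited table, and was the 1 of 14 side-branch genes to pass. Pcx, the pyruvate carboxylase, fell by 5.48-fold (-2.45, 0.00275), 1 of 5 tested gluconeogenesis genes, in the authors' deposited table. Prps1, which activates ribose 5-phosphate for nucleotide synthesis, fell by 3.27-fold (-1.71, 0.00499), 1 of 8 further pentose phosphate and ribose genes, in the authors' deposited table.

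Bsg, the chaperone of the lactate carriers, fell by 2.21-fold (log2 -1.14, adjusted p = 0.0234), 1 of 10 further transport genes, in the authors' deposited table. Pgm2, a phosphoglucomutase, fell by 2.82-fold (-1.50, 0.0240), 1 of 11 glycogen genes, in the authors' deposited table. None of 9 further isoforms and steps of glycolysis passed, and none of 10 genes for pyruvate entry into mitochondria, whose median was -0.23 in the authors' deposited table. At an unadjusted p under 0.05 these lists held 0 and 1, where all 18543 tested rows held 4147, in the authors' deposited table.

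**Figure D3:**
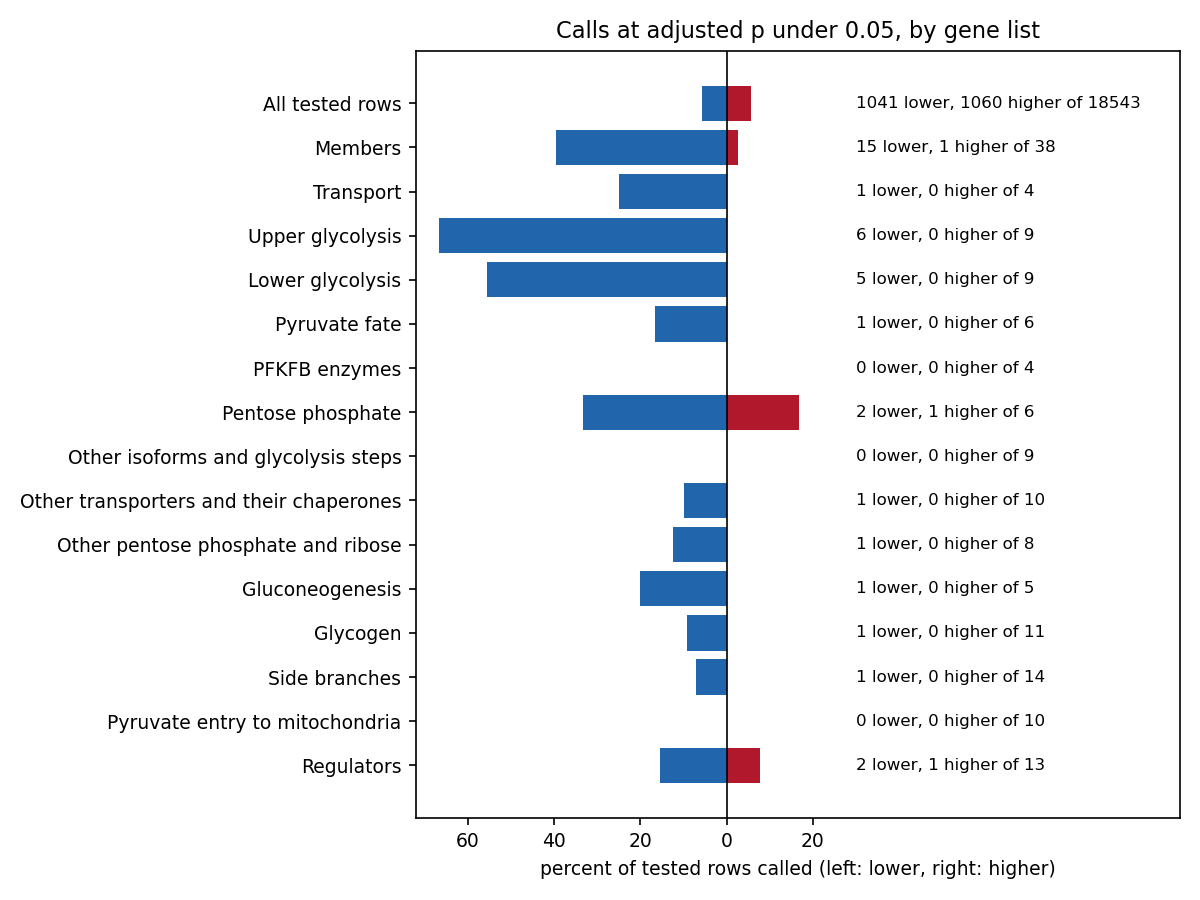
Percent of tested rows called lower (bars to the left) or higher (bars to the right) at an adjusted p under 0.05, for all tested rows, the members, their roles and the further gene lists, with the counts beside each bar. Upper glycolysis (6 of 9) and lower glycolysis (5 of 9) have the longest bars, against 1041 lower of 18543 in all.

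Of 13 regulators of the pathway 2 were lower and 1 higher. Of all 18543 tested rows 5.61% were lower and 5.72% higher in the authors' deposited table. The called regulators are given as single values, not as a change of the group. Myc, a transcription factor known to bind many glycolytic genes, fell to a log2 fold of -4.80 (adjusted p = 4.34e-21) in the authors' deposited table. Trp53, which restrains glycolysis in many cells, fell by 3.10-fold (-1.63, 0.00256) in the authors' deposited table. Txnip, which limits glucose uptake, rose by 2.50-fold (1.32, 0.00348) in the authors' deposited table. Hif1a, the oxygen-regulated factor that drives glycolytic genes in hypoxia, had 0.61 and missed the threshold (0.368) in the authors' deposited table.

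Since 15 members were lower in 1 comparison, the promoter windows of all members (250 bases before to 50 after each start, RefSeq, GRCm38.p6) were searched for the E-box CACGTG, bound by MYC and MAX, and for the hypoxia response cores ACGTG and GCGTG, on both strands. Of the 39 members 38 matched a window, 59 windows in all, and Slc2a3 did not. Each CACGTG also contains ACGTG on both strands and counts there too. The upstream 250 bases are shown with matches in capitals for Ldha and Tkt, the most secure falls, for Slc16a1, which holds an E-box and did not pass, and for Pgls, the 1 gene that rose. They lie at chr7:46845554-46845803, chr14:30548881-30549130, chr3:104638414-104638663 and chr8:71591934-71592183, all on the plus strand.
Ldha: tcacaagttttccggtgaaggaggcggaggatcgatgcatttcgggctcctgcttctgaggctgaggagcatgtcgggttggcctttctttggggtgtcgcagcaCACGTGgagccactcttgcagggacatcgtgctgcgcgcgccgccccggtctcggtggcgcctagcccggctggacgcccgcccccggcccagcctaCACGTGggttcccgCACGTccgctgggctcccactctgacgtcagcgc
Tkt: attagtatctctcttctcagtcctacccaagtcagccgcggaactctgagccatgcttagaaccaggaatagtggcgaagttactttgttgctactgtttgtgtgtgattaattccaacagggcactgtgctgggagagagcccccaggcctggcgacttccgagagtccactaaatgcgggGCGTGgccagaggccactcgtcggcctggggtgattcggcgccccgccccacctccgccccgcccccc
Slc16a1: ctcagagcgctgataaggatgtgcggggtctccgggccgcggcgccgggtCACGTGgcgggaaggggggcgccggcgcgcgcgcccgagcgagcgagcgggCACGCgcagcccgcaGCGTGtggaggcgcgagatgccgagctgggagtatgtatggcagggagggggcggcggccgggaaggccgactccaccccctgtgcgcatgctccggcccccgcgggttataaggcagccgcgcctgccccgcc
Pgls: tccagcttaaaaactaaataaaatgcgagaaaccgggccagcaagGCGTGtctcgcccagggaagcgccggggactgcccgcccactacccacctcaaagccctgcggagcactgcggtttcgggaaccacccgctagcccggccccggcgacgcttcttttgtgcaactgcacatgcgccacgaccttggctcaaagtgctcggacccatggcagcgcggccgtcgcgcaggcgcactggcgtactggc
CACGTG stood at 2 places in the shown stretch of Ldha and at 1 in that of Slc16a1, and was not in those of Tkt and Pgls. By gene, it was in a window of 6 of 38 members (15.8%) and in 8.09% of 27025 genes in the promoter table. It was found in 2 of the 15 lower members and in 4 of the other 23. By window the shares were 10.2% of 59 and 7.15% of 32851. ACGTG was in a window of 10 of the 15 lower members and 9 of the other 23, with 21.8% of all genes. GCGTG was in 9 of 15 and 17 of 23, with 35.2% of all genes. By window, ACGTG was in 39% of the members' 59 and 19.6% of all 32851, and GCGTG in 54.2% and 32.4%. A gene counted if any of its windows matched, so genes with more windows had more places for a match. The genes in the promoter table were not limited to tested ones. These are matches of letters and not measured binding.

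Transcript length moved with the direction of change across the whole table and is set beside the members here. Genes were divided by transcript length into 3 classes of equal size. In the class of shortest transcripts 10.7% of 4700 were lower, as were 7 of 17 members (41.2%), in the authors' deposited table. In the middle class 6.19% of 4700 were lower, and 6 of 13 members (46.2%) were in the authors' deposited table. In the class of longest transcripts 3.64% of 4701 were lower, and 2 of 8 members (25.0%), Hk1 and Hk2, were in the authors' deposited table. The shares called higher ran the other way, 1.7% in the shortest, 3.94% in the middle and 10.3% in the longest class in the authors' deposited table. Pgls, the 1 higher member, is in the class of shortest transcripts. The part of length in the members' folds was not tested. The median length was 2719 bases over the tested members and 3113 over 14101 tested genes, and the median GC content 53.6% and 50.3%.

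**Figure D4:**
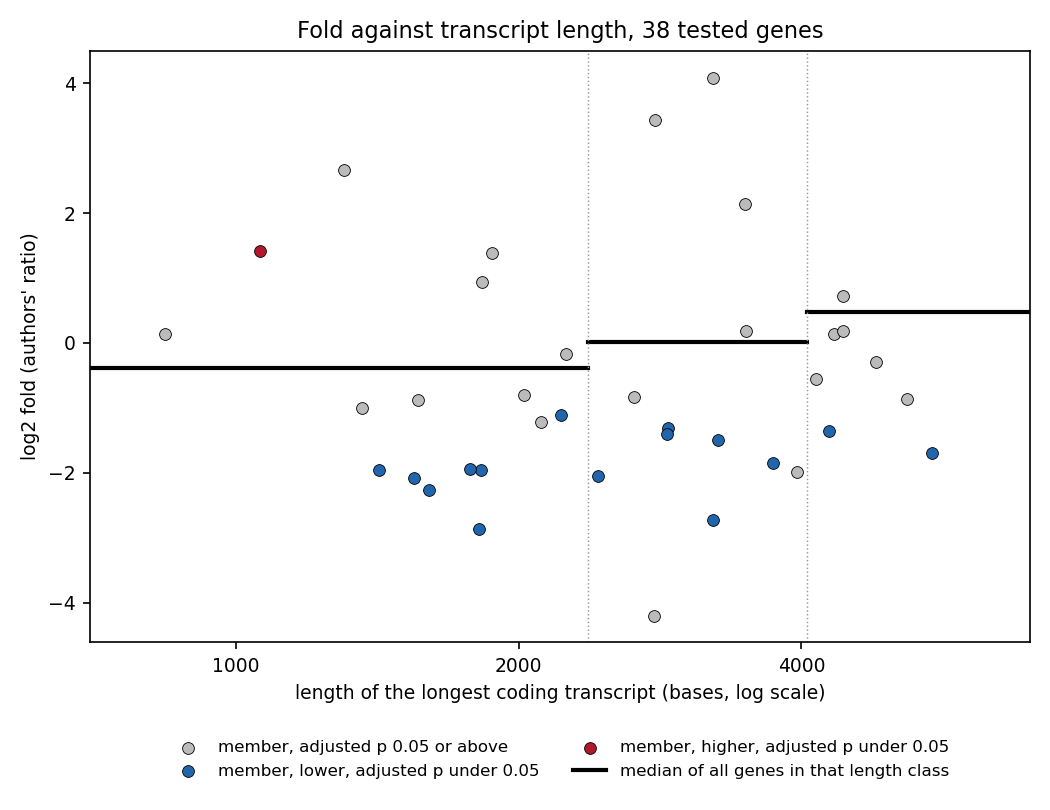
Log2 fold (y axis) against the length of the longest coding transcript (x axis, log scale) for the 38 tested members, with black bars at the median fold of all genes in each length class (-0.38, 0.01 and 0.47). Lower members occur in all 3 classes, 7, 6 and 2 of them. They were picked by the threshold for a fold below 1, so their place below the bar of their class is not a separate result.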

How the data were processed

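RNA of 6 samples, 3 with DOX and 3 without, was sequenced after ribosomal RNA depletion, per the labels' protocols. Tumours had been dispersed to single cells and red blood cells lysed. Per the submitters' processing notes, the authors used RSEM, DESeq and the build mm9, with no versions given. Their deposited table holds a ratio (linear fold) per gene with its p-value before and after the authors' adjustment. Per the file headers no column holds a sample, so depth is unknown and no test of samples could be run here. Of 29209 rows 18543 were tested, 2180 with a ratio of Inf and 579 with 0. Recomputing the Benjamini-Hochberg adjustment over the tested rows gave the authors' values to within 2.09e-06.

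Here log2 was taken of the ratio, rows were called at an adjusted p under 0.05, and calls were counted. Medians use finite folds. All 39 members were matched by identifier, and other lists by identifier, then by RefSeq symbol or synonym. The members and lists were chosen with earlier results of these data known, so their counts are descriptions. Every tested member is given, and of the other lists the called genes, at most 6 per pathway list and 4 per marker list by adjusted p, plus Hif1a and Txnip. Lengths, 3' UTRs and copies came from GENCODE M21 (GRCm38, not mm9), with BLAST 2.17.0 for copies. The longest coding transcript and the longest 3' UTR of each gene were used. Python 3.11.15 and pandas 2.3.3 were used, and the counting and motif steps were tested on simulated data.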

Additional observations from a re-analysis of the deposited data

How the results depend on the processing

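The count of 15 lower members was 11 at an adjusted p under 0.01 and 18 under 0.1, and 8 under Bonferroni (Ldha, Tkt, Tpi1, Gapdh, Pkm2, Pgk1, Pgam1 and Aldoa), each by construction of the threshold. The count of 1 higher member was 0 at an adjusted p under 0.01, 4 under 0.1 and 0 under Bonferroni. Both counts stayed at 15 and 1 with a fold of at least 2 and with folds taken relative to the table's median. Neither setting could have moved them, since the smallest folds called were 2.15 (Pgd, log2 -1.11) and 2.68 (Pgls, 1.42). They also stayed with finite folds alone, protein-coding matches alone and matching by current symbol or synonym. All 38 tested members were kept under these 3 settings, so this says little about robustness. Without the members that have a near-identical copy, a choice made after seeing the data, 9 were lower, from fewer genes. The members' median of -0.94 was -0.87 in that case. With 1 isoform per step it was -1.36, a value that depends on which isoform is kept, since isoforms of a step differed in fold. It was -1.11 relative to the table's median. Relative to that median, 0.17, the medians became -0.85 for transport, -1.57 and -2.10 for upper and lower glycolysis, -0.69 for pyruvate fate, 0.29 for PFKFB genes and -1.08 for the pentose phosphate branch. No paired analysis was possible because the deposited table holds no value per sample. Leaving out a sample was not run for the same reason. Depth is unknown, so a gene that did not pass may have been measured too thinly to call.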
